A study of Homo sapiens with 6 samples.

Results

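OLR1, the gene of the lectin-like receptor for oxidized low-density lipoprotein (LOX-1), and 8 other scavenger receptor genes were followed in SiHa, an established line of human cervical cancer cells. The 9 genes, of 48162 in the deposited table, were OLR1, SCARB1, CD36, MSR1, SCARA3, SCARF1, CXCL16, STAB1 and LRP1. They were chosen because OLR1 mRNA was about 2 times as high with the knockdown of CNN3 as without it, so the OLR1 values of that comparison are given as a description, without a test. SiHa cells were transfected either with si-CNN3#1, which is a siRNA (small interfering RNA) targeting the mRNA of the actin-binding protein calponin 3, or with the control siRNA si-NC. RNA was collected 48 h after transfection from 3 samples per group, called si-CNN3 and si-NC here, and sequenced in bulk. All 6 samples share the same line, the transfection and the harvest time, and the knockdown rests on a single siRNA sequence. The study describes repeated independent assays, and the p-values measure the spread between these 3 samples per group.

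Scavenger receptors are membrane proteins that bind modified lipoproteins, apoptotic cells, bacteria and other polyanionic ligands and carry them into the cell. They are grouped into classes by structure, with class A holding collagen-like receptors, class B the CD36 family and class E the C-type lectin-like LOX-1. They are best known from macrophages and endothelial cells, where uptake of oxidized lipoprotein leads to foam cells and endothelial activation, and several are also made by carcinoma cells.

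The siRNAs define the 2 groups, and their sequences are shown because LRP1, described further on, holds matches to the seed of si-CNN3#1. Each is given 5′ to 3′ as the sense strand and as the antisense guide, taken as the reverse complement of the 19-base core. Capitals mark bases 2 to 8 of the guide, the seed, and the matching site in the sense strand.
si-CNN3#1 sense: gcagaugggaaCCAACAAatt
si-CNN3#1 guide: uUUGUUGGuucccaucugc
si-NC sense: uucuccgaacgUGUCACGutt
si-NC guide: aCGUGACAcguucggagaa

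The reads counted on genes ranged from 18147028 to 19026341 per si-CNN3 sample and from 20287139 to 24976517 per si-NC sample. CNN3 itself had 28.1 ± 2.95 CPM (counts on the gene divided by the counts of the library in units of 1e+06 reads, after scaling by the trimmed mean of M-values, TMM; SD, n = 3) with si-CNN3 and 55.2 ± 2.97 with si-NC, so 50.9% of it remained. Of the 15860 genes that passed the filter on low counts, 13.3% were called, meaning a p of at most 0.05 in edgeR's quasi-likelihood test after Benjamini-Hochberg adjustment over all tested genes. A share of 6.17% was called higher and 7.14% lower with si-CNN3, and in 28.2% the groups did not overlap in CPM. Of the genes called, 46.3% were higher with si-CNN3 after TMM scaling, and 60.0% were higher when samples were scaled by total counts only. Of the macrophage markers, PTPRC, CSF1R, ITGAM, AIF1, TYROBP, FCER1G and LYZ together reached 0.896 to 0.999 FPKM (fragments on the gene scaled to its length and to the total of the sample) with si-CNN3 and 0.776 to 3.11 with si-NC. The highest of these sums was that of si-NC replicate 2, which held 26 counts of LYZ where each other sample held 1 to 3. CD14 was the exception among the 8 macrophage markers, at 121 ± 3.91 CPM with si-CNN3 and 149 ± 6.87 with si-NC (log2 fold change -0.30, adjusted p = 7.88e-10). AIF1 and TYROBP were at 0 counts in all si-CNN3 samples, and the 6 endothelial markers found in the table summed to 0.306 to 0.525 FPKM with si-CNN3 and 0.107 to 0.34 with si-NC. The 8 epithelial markers, led by KRT7 and KRT8, summed to 1790 to 1830 FPKM and 1810 to 1840 FPKM, while KRT5 alone was under 1 FPKM. In these bulk samples, fewer cells making a transcript and less transcript per cell cannot be told apart.

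On the scale of gene length, the 9 receptor genes covered more than 3 orders of magnitude. With si-NC, LRP1 was highest at 116 FPKM on average (114 to 118), above SCARB1 at 81.8 (81.6 to 82.0), CXCL16 at 23.7 (22.6 to 25.1) and OLR1 at 17.2 (16.6 to 18.1). SCARA3 at 1.82 FPKM, CD36 at 1.09 and SCARF1 at 0.179 followed, and MSR1 (0.0394) and STAB1 (0.0324) were lowest. The ranges of neighbours in this order did not overlap, except those of MSR1 and STAB1. Ranked among the 28022 genes with an FPKM above 0, LRP1 lay above 95.6% of genes, SCARB1 above 93.4%, CXCL16 above 79.5%, OLR1 above 75.6% and SCARA3 above 55.4%.

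With si-CNN3, OLR1 stood at 35.5 FPKM (33.7 to 36.8) and ranked above CXCL16 at 23.4 (22.5 to 24.5), the reverse of their order with si-NC. OLR1 was 72.6% of CXCL16 with si-NC and 151% with si-CNN3. Against SCARB1, which binds high-density lipoprotein and also native and modified low-density lipoprotein, the OLR1 level was 21.1% with si-NC and 42.2% with si-CNN3. Against LRP1, it was 14.9% and 33.5%. With si-CNN3, the ranges of SCARA3 (1.38 to 1.86) and CD36 (1.29 to 1.73) overlapped, as did those of MSR1 and STAB1. The plot of levels per gene length shows OLR1 changing places with CXCL16 between the groups. This change of places and the higher percentages restate the OLR1 rise by which the gene was chosen. Without scaling to length, OLR1 and CXCL16 overlapped with si-CNN3, at 29.2 to 32.2 and 29.5 to 32.0 CPM.

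**Figure D1:**
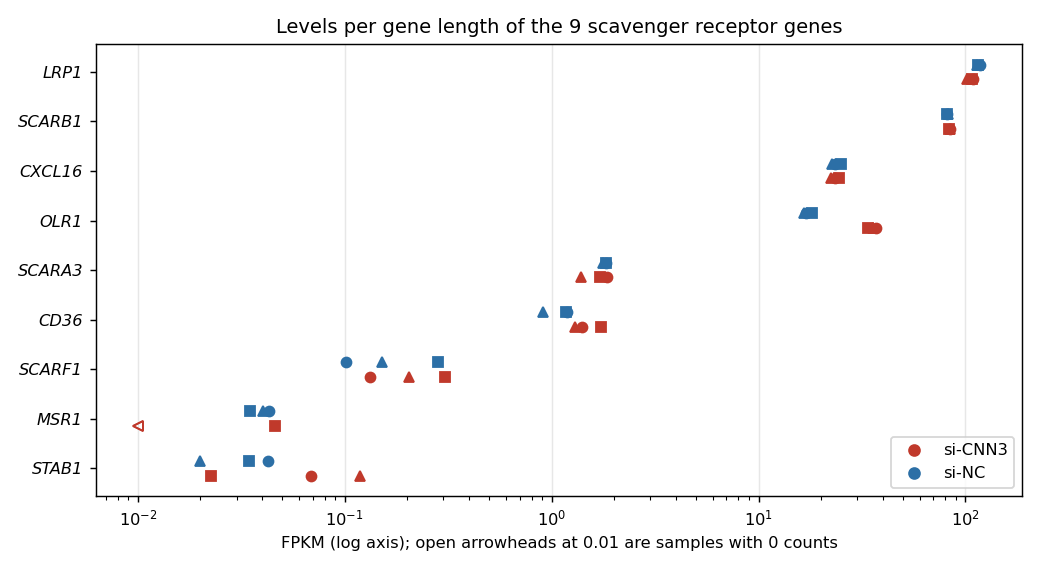
FPKM of the 9 scavenger receptor genes on a log axis, with 1 symbol per sample (circle, square and triangle for replicates 1, 2 and 3; red si-CNN3, blue si-NC) and samples with 0 counts drawn as open arrowheads at 0.01. LRP1 and SCARB1 lie highest, and OLR1 lies left of CXCL16 in the si-NC samples and right of it in the si-CNN3 samples. The shift of OLR1 is the rise by which it was chosen.

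OLR1 (ENSG00000173391) encodes a type II membrane protein with a C-type lectin-like domain that binds oxidized low-density lipoprotein. The gene lies on the minus strand of chromosome 12, from 10158301 to 10172138 in GRCh38. OLR1 had 608, 561 and 570 counts in si-CNN3 replicates 1, 2 and 3, and 301, 396 and 315 in si-NC replicates 1, 2 and 3. Scaled for depth, these were 32.2, 29.2 and 31.2 CPM with si-CNN3 and 15.0, 15.9 and 14.6 CPM with si-NC. All si-CNN3 samples lay above all si-NC samples, and the gap between the groups was wider than the spread within either. The means were 30.9 ± 1.54 CPM and 15.2 ± 0.67 CPM, so the si-CNN3 level was 204% of that with si-NC. The log2 fold change was 1.02, with a standard error (SE) of 0.064 and a 95% confidence interval from 0.89 to 1.15. This is the value by which the gene was chosen. The separation of the groups, the interval and the ranks that follow make no allowance for that choice and only describe the value. Among all 15860 tested genes, 52 had a larger log2 fold change, and among the 4360 tested genes with a mean between 0.5 and 2 times that of OLR1, 3 did. Leaving out si-NC replicate 2, the sample with the most macrophage marker counts, gave a log2 fold change of 1.06.

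**Figure D2:**
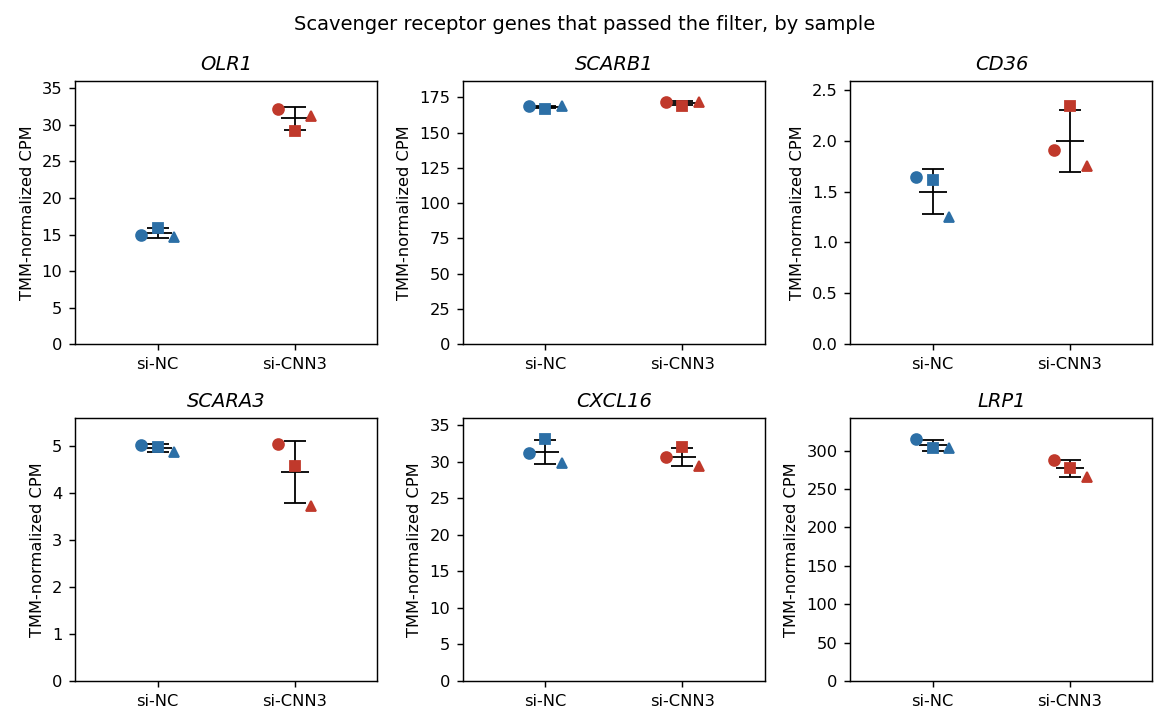
TMM-normalized CPM of the 6 receptor genes that passed the filter on low counts, 1 symbol per sample (circle, square and triangle for replicates 1, 2 and 3), with bars for the mean and SD of 3 samples. OLR1 separates widely (29.2 to 32.2 against 14.6 to 15.9), LRP1 lies lower in all si-CNN3 samples, and SCARA3 and CXCL16 overlap between the groups.

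OLR1 sits in the natural killer gene complex, a cluster of C-type lectin-like receptor genes on chromosome 12. The 3 nearest protein-coding genes on one side are CLEC7A, the beta-glucan receptor Dectin-1, and CLEC1A and CLEC9A. CLEC1A and CLEC9A had 0 counts in all samples, and CLEC7A had 4 counts in si-CNN3 replicate 3, 3 counts in si-NC replicate 2 and 0 in the others. On the other side, TMEM52B (10170542 to 10191801, plus strand), a gene of a single-pass membrane protein, overlaps the start of OLR1 by 1597 bases on the opposite strand. TMEM52B had 3.71, 2.97 and 3.72 CPM with si-CNN3 and 1.89, 2.09 and 1.58 CPM with si-NC, and the groups did not overlap. TMEM52B was higher with si-CNN3 (log2 fold change 0.89, SE 0.18, adjusted p = 0.000218 by edgeR's quasi-likelihood test). The annotated exons of OLR1 and TMEM52B share 0 bases. Whether counting used the strand is not given in the sources used here, so reads from unannotated parts of either transcript cannot be assigned between them.

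The gene that follows, GABARAPL1 (10212458 to 10223130), encodes an autophagy protein of the ATG8 family. GABARAPL1 was 91.0 ± 4.72 CPM with si-CNN3 and 81.6 ± 0.835 CPM with si-NC (log2 fold change 0.16, SE 0.037, adjusted p = 0.00192). KLRD1, the CD94 chain of natural killer receptors, had 0 to 3 counts per sample. Of 18 C-type lectin genes of the complex, 4 passed the filter and 0 were called by edgeR, against 13.3% of all tested genes, and 0 were called by DESeq2 or limma. At an unadjusted p under 0.05 there was 1, KLRG1, an inhibitory receptor of lymphocytes, with 0.748 ± 0.157 CPM against 0.393 ± 0.0283 (log2 fold change 0.92, SE 0.38, adjusted p = 0.10). CLEC2D, the ligand of a natural killer receptor and the better detected of them, was at 4.28 ± 0.58 CPM with si-CNN3 and 4.54 ± 0.235 with si-NC (adjusted p = 0.756). The 14 others had at most 11 counts in any sample.

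The pattern of OLR1 across the 6 samples was compared with that of every tested gene with a mean of at least 1 CPM, by the Euclidean distance between centred log2 CPM values. The 5 nearest genes were IL6 at a distance of 0.222, PDZK1IP1 at 0.231, CHAC1 at 0.241, KRT80 at 0.283 and SERTAD4-AS1 at 0.306. IL6 encodes an inflammatory cytokine, CHAC1 a glutathione-degrading enzyme and KRT80 an epithelial keratin. Their log2 fold changes were 0.94 for IL6, 0.94 for PDZK1IP1, 0.90 for CHAC1, 0.92 for KRT80 and 0.89 for SERTAD4-AS1. They were picked by closeness to OLR1, so their fold changes were bound to lie near that of OLR1.

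**Figure D3:**
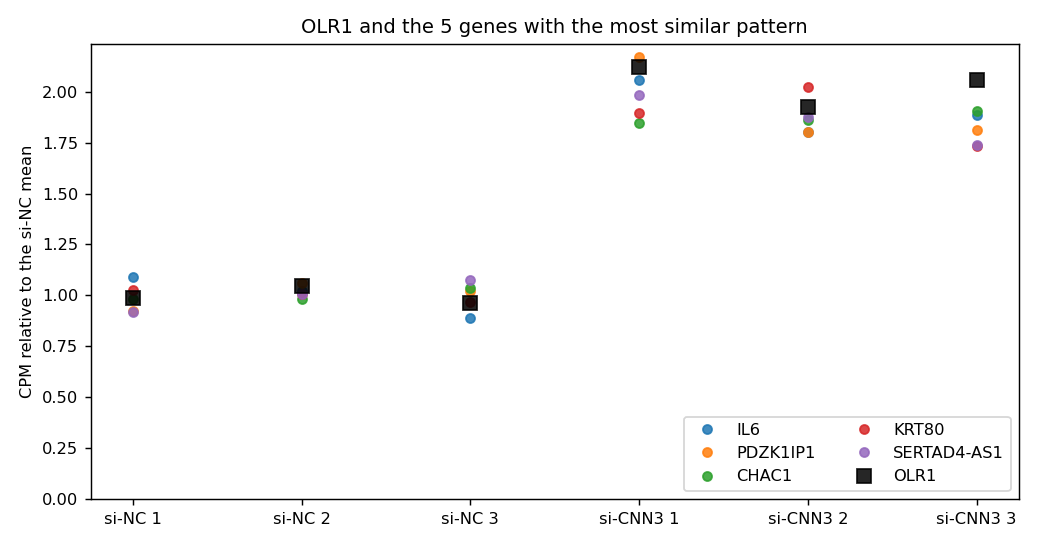
CPM in each of the 6 samples relative to the mean of the si-NC samples, for OLR1 (black squares) and the 5 genes with the smallest distance to it (coloured circles). The si-NC samples lie near 1 and the si-CNN3 samples of all 6 genes lie clearly above them.

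Of the 8 receptor genes other than OLR1, 5 passed the filter on low counts and 1 of these (20.0%), LRP1, was called, against 13.3% of all tested genes. The groups did not overlap in 3 of the 5, LRP1, SCARB1 and CD36, against 28.2% of all tested genes. For SCARB1, the gap is smaller than the rounding of the CPM values given below. The median log2 fold change of the 5 was -0.035, and that of all tested genes was 0.0023.

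LRP1 (ENSG00000123384; chromosome 12, 57128493 to 57213351, plus strand) encodes a large endocytic receptor of the low-density lipoprotein receptor family that clears protease complexes, apolipoprotein E remnants and thrombospondin. LRP1 had 288, 278 and 266 CPM with si-CNN3 and 315, 303 and 303 CPM with si-NC. All si-CNN3 samples were below all si-NC samples. The means were 277 ± 11.3 and 307 ± 6.88 CPM, so LRP1 fell to 90.3% of its si-NC value. The log2 fold change was -0.15 (SE 0.028, 95% confidence interval -0.20 to -0.09, adjusted p = 0.00011 by edgeR's quasi-likelihood test). The fold change ranged from -0.18 to -0.12 over all alternatives tried, and the adjusted p rose to 0.106 in limma on log2(FPKM + 1) with no filter. On the opposite strand, STAT6 shares 59 exonic bases with LRP1, or 0.283% of the LRP1 exons. STAT6, a transcription factor of interleukin-4 signalling, was 198 ± 3.7 CPM with si-CNN3 and 214 ± 3.17 with si-NC (log2 fold change -0.11, adjusted p = 0.00564).

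Among the longest coding transcripts of the 9 genes in GENCODE release 29, that of LRP1 (14897 bases) held 6 matches to the seed of si-CNN3#1, the letters CCAACAA on the transcript strand. That of STAB1 held 2, those of the other 7 held 0, and no transcript of the 9 held the full 19-base match. The seed match of si-NC, TGTCACG, was in 0 of the 9 transcripts. Of 19669 coding genes, 23.2% held CCAACAA at least once and 6.42% held TGTCACG. Among the 679 genes whose transcript reaches 10000 bases, as that of LRP1 does, 63.9% held CCAACAA. All the LRP1 matches lie in the coding sequence, which runs from base 467 to base 14098 of the transcript, and they are spread from exon 15 to exon 83. They are shown with 10 bases on either side from the transcript, with the match in capitals and its position in GRCh38 on the plus strand.
Exon 15, chr12:57162864-57162870: caagttggcaCCAACAAatgccgggtg
Exon 22, chr12:57173891-57173897: cacccttgtgCCAACAAcacctcagtc
Exon 27, chr12:57178508-57178514: ctggctaaggCCAACAAgtggaccggc
Exon 44, chr12:57191417-57191423: gtgcagcgggCCAACAAgcacgtgggc
Exon 61, chr12:57199323-57199329: accacgggcaCCAACAAaacgctcctc
Exon 83, chr12:57210793-57210799: ggctactgtgCCAACAAcagcacctgc
These are matches of letters, and their part in the LRP1 value was not tested.

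The class B receptors SCARB1 and CD36 belong to the same protein family. SCARB1 (chromosome 12, 124776856 to 124882668, minus strand) had 172, 169 and 172 CPM with si-CNN3 and 169, 167 and 169 CPM with si-NC. The groups lay within a narrow band, with means of 171 ± 1.53 and 168 ± 0.805. They were separate only before rounding, since both hold a value of 169 CPM as printed. The log2 fold change was 0.022 (SE 0.029, 95% confidence interval -0.036 to 0.080, adjusted p = 0.708), and the interval holds no change beyond 0.080 in either direction. CD36 (chromosome 7, 80369575 to 80679277, plus strand), the fatty acid translocase and a receptor for thrombospondin and oxidized lipoprotein, was scarce, counted 36, 45 and 32 times with si-CNN3 and 33, 40 and 27 times with si-NC. These corresponded to 1.91, 2.34 and 1.75 CPM with si-CNN3 and 1.64, 1.61 and 1.25 CPM with si-NC. The groups did not overlap, but the gap of 1.64 to 1.75 CPM was small against the spread. The log2 fold change of CD36 was 0.42 (SE 0.22, 95% confidence interval -0.022 to 0.85, adjusted p = 0.23), which this depth cannot separate from no change or from a change of 0.85.

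SCARA3, a class A receptor that has been described as a scavenger of reactive oxygen species, lies on chromosome 8. It had 5.04, 4.58 and 3.72 CPM with si-CNN3 and 5.03, 4.98 and 4.87 CPM with si-NC. The groups overlapped, and the 3 si-CNN3 samples were more widely spread. The log2 fold change of SCARA3 was -0.15 (SE 0.13, 95% confidence interval -0.42 to 0.11, adjusted p = 0.52). CXCL16 (chromosome 17, 4733526 to 4739922, minus strand) encodes a transmembrane chemokine that also binds phosphatidylserine and oxidized lipoprotein. CXCL16 had 30.7, 32.0 and 29.5 CPM with si-CNN3 and 31.2, 33.2 and 29.9 CPM with si-NC. These groups overlapped, with a log2 fold change of -0.035 (SE 0.056, 95% confidence interval -0.15 to 0.077, adjusted p = 0.765) that became 0.0091 without si-NC replicate 2. MED11, on the opposite strand, shares 85 exonic bases with CXCL16, or 3.04% of its exons, and was at 4.22 ± 0.506 against 4.82 ± 0.306 CPM (adjusted p = 0.40).

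**Figure D4:**
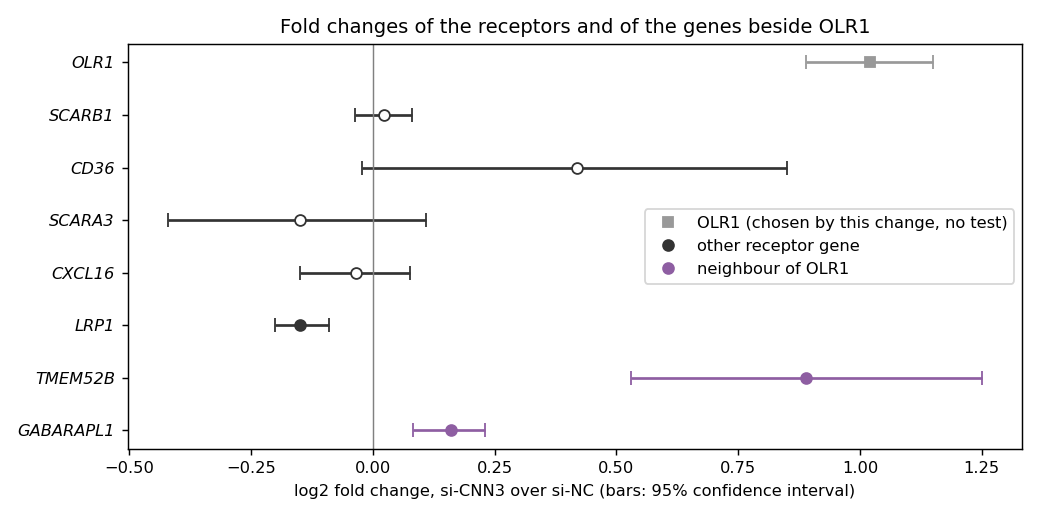
Log2 fold change of si-CNN3 over si-NC with its 95% confidence interval from edgeR, for the 6 receptor genes that passed the filter and the 2 detected neighbours of OLR1; filled circles were called, open circles were not, and the grey square is OLR1, which carries no test. LRP1 lies just below 0 at -0.15, TMEM52B at 0.89 lies close to OLR1 at 1.02, and the intervals of SCARB1, CD36, SCARA3 and CXCL16 cross 0.

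SCARF1, MSR1 and STAB1 did not pass the filter and have no test. SCARF1, a class F receptor of endothelial cells that binds acetylated lipoprotein, was counted 6, 14 and 9 times with si-CNN3 and 5, 17 and 8 times with si-NC. STAB1, the hyaluronan and acetylated lipoprotein receptor stabilin-1 of sinusoidal endothelium and macrophages, was counted 3, 1 and 5 times with si-CNN3 and 2, 2 and 1 times with si-NC. MSR1, the macrophage class A receptor, was counted 0, 1 and 0 times with si-CNN3 and 1 time in each si-NC sample. The counts of SCARF1 overlapped between the groups, and those of STAB1 and MSR1 were at or near the limit of 3 counts that a count of 0 allows, which is 0.121 to 0.164 CPM here. A difference in these 3 genes was not detectable at this depth, and the limit covers counting error only. NT5DC2 shares 111 exonic bases with STAB1 on the opposite strand (1.05% of the STAB1 exons) and was at 68.4 ± 2.15 against 74.6 ± 0.931 CPM, so the few STAB1 counts are uncertain.

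Other scavenger receptors were detected unevenly, and 8 of the 17 found in the table (of 18 listed) passed the filter. Of these, 3 were called higher and 1 lower, against 6.17% and 7.14% of all tested genes, with a median log2 fold change of 0.039. CD163L1, a class I receptor, was 9.23 ± 1.03 CPM with si-CNN3 and 7.18 ± 0.311 with si-NC (log2 fold change 0.36, adjusted p = 0.0096). LGALS3, a galectin that binds advanced glycation end products and is not itself a membrane receptor, was at 199 ± 1.75 and 179 ± 0.532 CPM (0.15, adjusted p = 6.29e-05). CD44, the hyaluronan receptor, was at 251 ± 4.13 and 233 ± 7.15 CPM (0.11, adjusted p = 0.00607). LRP2, or megalin, was the gene called lower, at 12.5 ± 1.14 and 15.9 ± 1.09 CPM (-0.35, adjusted p = 0.0012). SCARB2, the lysosomal relative of SCARB1 and CD36, was at 179 ± 4.57 and 182 ± 2.94 CPM (-0.028, adjusted p = 0.622). The call for CD163L1 was lost without si-CNN3 replicate 3 (adjusted p = 0.122) and without si-NC replicate 2 (0.0588), and that for CD44 without si-NC replicate 2 (0.101), which left 2 genes called. CD163L1 was also not called by DESeq2 (adjusted p = 0.121), and LRP2 was not called in any of the 3 limma settings on FPKM (log2 fold change -0.25 to -0.32, adjusted p = 0.106 to 0.29).

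Of the other low-density lipoprotein receptor family members and the proteins that handle them, 19 of 21 passed the filter, 5 were called lower and 0 higher, and their median log2 fold change was -0.074. This is 26.3% of the tested members called, against 13.3% of all tested genes. SORT1, the sorting receptor sortilin, fell from 34.5 ± 0.824 to 28.8 ± 1.34 CPM (-0.26, adjusted p = 0.000346). LRP11 fell from 113 ± 4.37 to 96.4 ± 1.81 CPM (-0.24, adjusted p = 6.71e-07). LRP5, a Wnt coreceptor, fell from 189 ± 2.01 to 173 ± 5.03 CPM (-0.12, adjusted p = 0.00181). LRP10 was at 163 ± 6.67 and 175 ± 1.32 CPM (-0.11, adjusted p = 0.0113), and its call was lost without si-CNN3 replicate 3 (adjusted p = 0.0992). Without that sample, 3 genes of the list were called.

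Of 18 genes of ligands of these receptors, 12 passed the filter, 2 were called higher and 2 lower (33.3%, against 13.3% of all tested genes), and the median log2 fold change was -0.027. THBS1, the thrombospondin bound by CD36 and LRP1, rose from 288 ± 7.66 to 336 ± 8.76 CPM (0.22, adjusted p = 1.06e-08). PLAUR, the urokinase receptor that is internalised with LRP1, fell from 83.1 ± 1.8 to 71.7 ± 1.92 CPM (-0.21, adjusted p = 3.24e-05), and CALR, calreticulin, fell by 0.11 on the log2 scale (adjusted p = 0.00153). HSP90B1, an abundant endoplasmic reticulum chaperone, was at 908 ± 8.71 and 905 ± 11.6 CPM (adjusted p = 0.935).

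LOX-1, CXCL16 and LRP1 can be cut from the cell surface by proteases. Of 14 genes of sheddases and their regulators, all tested, 1 was called higher and 4 lower (35.7%, against 13.3% of all tested genes), with a median log2 fold change of -0.017. ADAM9 rose from 123 ± 1.37 to 147 ± 4.65 CPM (0.25, adjusted p = 1.3e-08). ADAM15 fell from 241 ± 2.81 to 217 ± 6.26 CPM (-0.15, adjusted p = 0.000107), and TIMP2, an inhibitor of metalloproteinases, from 303 ± 4.11 to 275 ± 13.5 CPM (-0.14, adjusted p = 0.000238). FRMD8, which stabilises the ADAM17 complex, fell from 43.3 ± 2.0 to 36.8 ± 1.37 CPM (-0.24, adjusted p = 0.000511). ADAM17, the sheddase of tumour necrosis factor, was at 26.7 ± 1.41 and 30.4 ± 1.51 CPM (-0.19, adjusted p = 0.0198), and its call was lost without si-CNN3 replicate 1 (0.0622), si-CNN3 replicate 3 (0.121) or si-NC replicate 2 (0.165). ADAM10, which cleaves CXCL16, was at 225 ± 2.45 and 217 ± 1.43 CPM (0.052, adjusted p = 0.237). TIMP1 and MMP14, the most abundant of the list per length, were at 414 ± 15.8 against 415 ± 18.2 CPM and 252 ± 8.7 against 252 ± 1.27 CPM.

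Lipid taken up by these receptors is stored, exported or oxidised. Of 19 genes of cholesterol efflux and storage, 17 were tested, 3 were called lower and 0 higher (17.6%, against 13.3% of all tested genes). ABCG1, a sterol exporter, fell from 39.6 ± 0.941 to 28.9 ± 0.834 CPM (-0.45, adjusted p = 1.8e-09). NPC2, which carries cholesterol out of the lysosome, fell from 158 ± 3.6 to 124 ± 4.28 CPM (-0.36, adjusted p = 4.67e-13), and SLC9A3R1, a PDZ scaffold, from 43.6 ± 0.56 to 38.0 ± 1.54 CPM (-0.20, adjusted p = 0.0032). No call of these 3 genes was lost on leaving out any sample. NR1H2, the liver X receptor beta, was at 101 ± 6.48 and 97.2 ± 3.74 CPM (adjusted p = 0.437).

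Of 19 genes of fatty acid uptake, the other role of CD36, 16 were tested, 2 were called higher and 3 lower (31.2%, against 13.3% of all tested genes). PPARA, a nuclear receptor of fatty acid oxidation, fell from 32.8 ± 1.2 to 27.2 ± 0.656 CPM (-0.27, adjusted p = 0.000263). SLC27A4, a fatty acid transporter, fell from 54.7 ± 0.63 to 47.7 ± 1.11 CPM (-0.20, adjusted p = 0.00101), and CAV2, caveolin 2, rose from 60.7 ± 2.02 to 71.2 ± 4.41 CPM (0.23, adjusted p = 5.18e-05). Its partner CAV1 was at 107 ± 2.72 and 104 ± 1.48 CPM (adjusted p = 0.55). The acyl-CoA synthetases ACSL4 (0.093, adjusted p = 0.0208) and ACSL5 (-0.13, adjusted p = 0.0306) were called in opposite directions. The call for ACSL4 was lost without si-CNN3 replicate 1 (0.0668), si-CNN3 replicate 2 (0.0854), si-NC replicate 2 (0.0947) or si-NC replicate 3 (0.0656), and that for ACSL5 without si-CNN3 replicate 2 (0.0842), si-CNN3 replicate 3 (0.161) or si-NC replicate 3 (0.246). Without si-CNN3 replicate 2, and likewise without si-NC replicate 3, 3 genes of the list were called.

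LOX-1 engagement is known to activate NF-kB, and OLR1 is in turn induced by inflammatory cytokines. Whether either link bears on the values here was not tested. Of 20 NF-kB and adhesion genes, 16 were tested. Of these, 9 were called higher and 1 lower (62.5%, against 13.3% of all tested genes), with a median log2 fold change of 0.37. This list, like the others, was chosen with earlier results of these data known, and the share makes no allowance for that. CXCL8, a neutrophil chemokine, was 7.70 ± 0.738 CPM with si-CNN3 and 2.92 ± 0.16 with si-NC (1.40, SE 0.13, adjusted p = 1.88e-12). IL6 rose from 10.5 ± 1.09 to 20.2 ± 1.40 CPM (0.94, SE 0.079, adjusted p = 5.53e-14). RELB, an NF-kB subunit, rose from 10.0 ± 0.215 to 17.3 ± 0.189 CPM (0.79, adjusted p = 1.2e-11), and CXCL1 from 9.45 ± 1.18 to 15.2 ± 0.145 CPM (0.70, adjusted p = 8.03e-09). TNFAIP3, the feedback inhibitor A20, rose from 30.0 ± 0.377 to 46.1 ± 1.62 CPM (0.62, adjusted p = 2.36e-14). NFKBIA, which encodes the inhibitor I-kappa-B-alpha, was the 1 called lower, at 180 ± 10.7 against 193 ± 4.47 CPM (-0.10, adjusted p = 0.0268). Its call was lost without si-CNN3 replicate 2 (0.36), si-NC replicate 1 (0.13) or si-NC replicate 3 (0.0924). RELA, the p65 subunit, was at 89.9 ± 1.95 and 88.3 ± 2.95 CPM (0.027, adjusted p = 0.712).

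**Figure D5:**
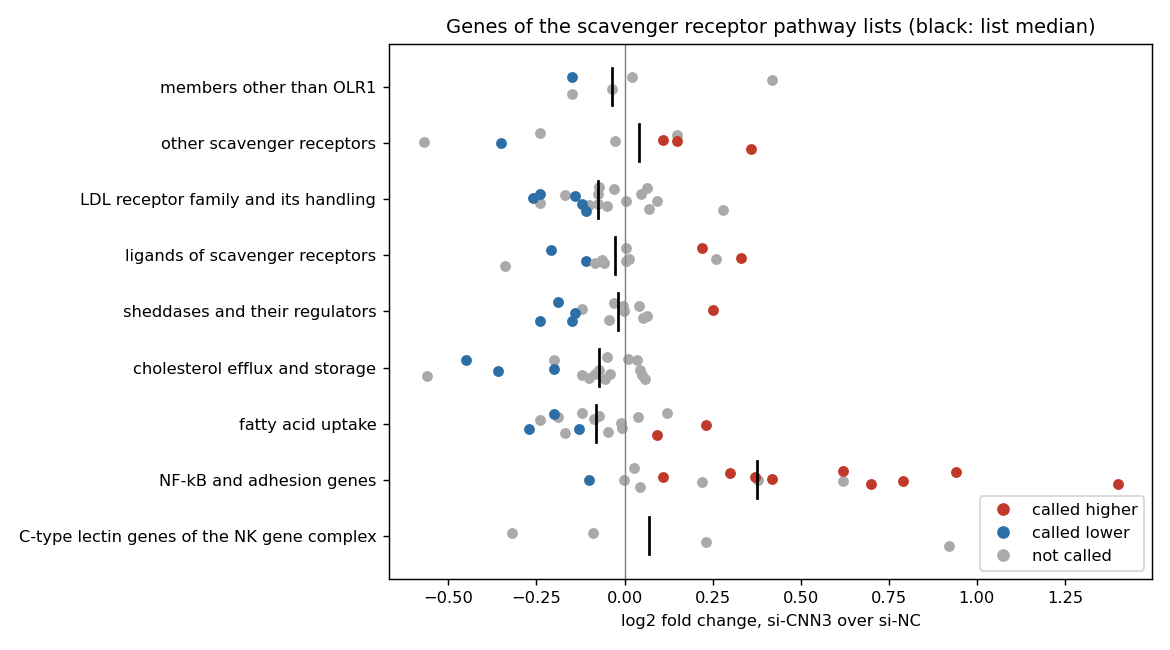
Log2 fold change of si-CNN3 over si-NC for every tested gene of the lists, 1 point per gene (red called higher, blue called lower, grey not called; vertical scatter only separates points) with the list median as a black line. The medians lie between -0.08 and 0.073 except for the NF-kB and adhesion genes at 0.37.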

How the data were processed

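RNA sequencing of 6 SiHa samples was analysed, 3 per group, grouped by the sample labels. The authors aligned filtered reads, and the submitters' processing notes list TopHat2 2.0.9, Bowtie2 2.0.6, HTSeq and DESeq 1.10.1. The authors deposited raw read counts per Ensembl gene and FPKM values of the same genes. The genome build, the annotation and the strand setting are not given in the sources used here. Gene names and coordinates came from GENCODE release 29 on GRCh38, and the FPKM values served to compare levels between genes.

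Counts were tested in R 4.3.3 with edgeR 4.0.16 (TMM, default filterByExpr, glmQLFit, glmQLFTest), with condition alone in the model. The p-values were adjusted by Benjamini and Hochberg's method over all 15860 tested genes, and 0.05 was the threshold. edgeR put the common biological coefficient of variation at 0.0232. SE and 95% confidence intervals follow from the F statistic. The procedure was also run on simulated counts of independent samples, with the same dispersion for every gene and no effect of the replicate number. That run cannot speak to such an effect, or to differing dispersions, in these data. Alternatives were RLE, upper quartile and total count scaling, DESeq2 1.42.0, no filter, a minimum of 10 counts in each sample, a block for the replicate number, each sample left out in turn, and limma 3.58.1. Limma was run on log2(FPKM + 1), for genes of mean FPKM 1 or more and for all genes, and on log2(FPKM + 0.1) for the former. Fold changes of low genes are understated on these scales.

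The members, the lists and the tests were chosen with earlier results of these data known. The genes named are the 9 members, up to 5 called genes with the largest change and the 2 genes with the highest FPKM of each list, the 5 genes nearest to OLR1, its 3 neighbours on each side and CNN3. Genes overlapping members, cell type markers, SCARB2 and ADAM10 were added after their values were seen. Some genes of the lists are not reported here by name. A longest coding transcript per gene was searched for seed matches on the transcript strand.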

Additional observations from a re-analysis of the deposited data

How the results depend on the processing

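The number of genes called over the whole table was 2111, against 1074 with DESeq2 and 1551 to 1747 on leaving out each sample in turn. Limma called 1363 on log2(FPKM + 1), 1353 on log2(FPKM + 0.1) and 585 without a filter. The study, which used DESeq, reported far fewer differentially expressed genes at an adjusted p of at most 0.05, and why was not tested. Of the receptor genes other than OLR1, LRP1 was called in every alternative but limma without a filter, which called 0 of them. That same setting called 1 of the other scavenger receptors, 2 of the LDL receptor family, 2 ligands, 1 sheddase gene, 1 fatty acid uptake gene and 6 NF-kB and adhesion genes. Limma with a mean FPKM of at least 1 called 3 LDL receptor family genes and 3 sheddase genes with either pseudocount, and DESeq2 called 3 fatty acid uptake genes. Of the genes named, DESeq2 did not call CD163L1 (adjusted p = 0.121), ADAM17 (0.152), ACSL4 (0.0621), ACSL5 (0.162), NFKBIA (0.114) or ICAM1 (0.185). Limma on log2(FPKM + 1), for genes of mean FPKM 1 or more, did not call LRP2 (0.106), LRP10 (0.114), ADAM17 (0.125), TIMP2 (0.0524), ACSL5 (0.158) or NFKBIA (0.179). Leaving out single samples gave 2 to 5 other scavenger receptors, 3 to 7 LDL receptor family genes, 3 to 5 ligands, 4 to 5 sheddase genes, 3 to 4 cholesterol genes, 3 to 5 fatty acid uptake genes and 8 to 10 NF-kB and adhesion genes. The share of calls that were higher was 46.3%, 60.0% with total counts only, 40.3% with DESeq2, and 58.6%, 58.3% and 54.0% in the 3 limma settings. The cause of these differences was not tested. OLR1 kept a log2 fold change of 0.99 to 1.06 throughout, and CD36 one of 0.24 to 0.50 with an adjusted p of 0.197 to 0.555. CXCL16 ran from -0.07 to 0.0091.

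The replicate number as a block raised the calls to 2727, which held all 2111 genes. Deviations from the group means correlated at 0.0462, 0.102 and 0.0711 between same-numbered samples over 11125 genes, and each sample correlated best with its own number. Between differently numbered samples, the correlations ran from -0.072 to 0.00164. What same-numbered samples shared was not tested. The main test had condition alone in the model, so any variation shared by same-numbered samples stayed within its spread. Depth limits SCARF1, STAB1 and MSR1, at no more than 17 counts per sample, and leaves a wide interval for CD36.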

Other observations

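The other NF-kB and adhesion genes called higher were NFKB2, BIRC3, PTGS2 and ICAM1, named here after their values were seen. NFKB2, the precursor of the p52 subunit, was 118 ± 3.1 CPM with si-CNN3 and 91.1 ± 2.12 with si-NC (log2 fold change 0.37, adjusted p = 1.74e-12 by edgeR's quasi-likelihood test). BIRC3, an inhibitor of apoptosis, was at 15.8 ± 1.67 and 11.9 ± 1.13 CPM (0.42, adjusted p = 0.000179), and PTGS2, or cyclooxygenase 2, at 36.9 ± 3.8 and 30.0 ± 1.14 CPM (0.30, adjusted p = 0.000137). ICAM1, an adhesion receptor for leukocytes, was at 77.2 ± 0.453 and 71.5 ± 1.76 CPM (0.11, adjusted p = 0.039), and its call was lost on leaving out any 1 of the 6 samples (adjusted p from 0.0533 to 0.213). Of the epithelial markers, KRT8 was at 533 ± 22.5 and 608 ± 19.9 CPM (-0.19, adjusted p = 4.87e-07) and KRT18 at 130 ± 0.843 and 147 ± 7.51 CPM (-0.18, adjusted p = 5.31e-05), while KRT7, CDH1, EPCAM, KRT19 and CDKN2A were not called.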
